A study of Mus musculus with 2 samples.

Results

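A set of 8 genes that encode surface molecules of the exchange between tumor cells and immune cells were examined in GL261, a mouse glioma cell line of the C57BL/6 strain. They are Cd274, Cd47, Cd276, Pvr, Nectin2, Cd24a, Cd200 and Fas, chosen by their gene symbols, and make up 8 of the 32285 genes counted. The data are 1 single-cell RNA sequencing (scRNA-Seq) library of adherent cells, grown as a monolayer in DMEM with 10% FBS, and 1 library of neurosphere cells, which float as aggregates and were kept for 12 days in the same medium to which EGF and FGF, at 20 ng/mL each, and the supplement B-27 had been added. Both cultures come from the same line with no host cells, and both were frozen before library construction. Adherent cells were detached with trypsin and neurospheres were broken up by pipetting, so culture, detachment and library cannot be told apart. There were no replicates, so no test was run, and every 95% interval covers counting error only.

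Immune checkpoint ligands restrain immune cells by binding inhibitory receptors on them. Cd274 (PD-L1) binds PD-1 on T cells, Cd276 (B7-H3) belongs to the same B7 family, and Pvr (CD155) and Nectin2 (CD112) are nectin family ligands that share the inhibitory receptor TIGIT and the activating receptor DNAM-1. Of the other inhibitory receptors of the family, CD96 binds Pvr and PVRIG binds Nectin2. Cd47 gives phagocytes a "don't eat me" signal through SIRPα, Cd24a does so through Siglec receptors, and Cd200 restrains myeloid cells through its receptor Cd200r1. Fas is not a ligand but the death receptor through which Fas ligand on cytotoxic cells starts apoptosis, so the 8 genes hold 7 ligands and 1 receptor. Interferons, which act in part through interferon regulatory factors (IRFs), are well known inducers of Cd274, and NF-κB contributes to the transcription of Cd274 and Fas.

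The 250 bases before the start site are shown for Cd274 and Cd47. Of the genes with at least 50 UMIs in the main comparison, these were over 1.5-fold higher with interferon-stimulated genes in adherent cells. In neurosphere cells Cd47 was as well, while Cd274 had too few UMIs there unless all UMIs were used. The sequences are those of RefSeq for GRCm38.p6, both on the plus strand, and capitals mark a match to a searched element. RefSeq windows were found for 6 of the 8 genes, all but Pvr and Cd24a.
Cd274, chr19:29367188-29367437: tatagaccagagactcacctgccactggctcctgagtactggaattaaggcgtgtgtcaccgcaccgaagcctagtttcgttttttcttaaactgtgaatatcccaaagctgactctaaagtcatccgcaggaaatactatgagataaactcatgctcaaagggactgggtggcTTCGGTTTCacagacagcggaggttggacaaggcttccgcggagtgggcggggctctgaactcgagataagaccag
Cd47, chr16:49855404-49855653: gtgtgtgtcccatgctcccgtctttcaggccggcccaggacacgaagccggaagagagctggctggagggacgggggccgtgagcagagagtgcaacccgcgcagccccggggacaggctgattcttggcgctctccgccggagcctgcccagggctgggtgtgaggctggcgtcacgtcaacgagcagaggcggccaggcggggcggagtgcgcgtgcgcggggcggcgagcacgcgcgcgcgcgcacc
The search covered 2 elements on both strands. The IRF element, searched under its usual spelling of paired GAAA cores, was in 2.98% of 32851 promoter windows, and the NF-kB element, also under its usual degenerate spelling, was in 3.90%. The windows of Cd274 and Cd47 held neither. A form of the IRF element that is 1 base shorter, GAAANNGAA, overlaps the full element and was chosen after the sequences had been read. It was in 7.13% of all windows and in that of Cd274, where it lies on the minus strand and reads TTCGGTTTC on the plus strand, 76 bases before the start. A match is a description of the letters in this window and not a site shown to be used.

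After cells of low quality had been left out, 5051 of 5764 adherent cells and 4276 of 4951 neurosphere cells remained, with medians of 8260 and 13198.5 unique molecular identifiers (UMIs) per cell, where a UMI marks 1 captured mRNA molecule. The cells removed were high in mitochondrial RNA, with a median of 48.9% mitochondrial UMIs in adherent and 87.0% in neurosphere cells against 2.02% and 3.97% in those kept. The 2 libraries shared 12 cell barcodes, 9 of them among kept cells. Of 11 immune cell markers, 4 were at 0 UMIs in adherent and 5 in neurosphere cells. Ptprc (CD45), which marks all leukocytes, had 1 and 0 UMIs, and the summed level of the list was 15.5 and 6.59 CPM, that is UMIs of a gene scaled to a common library total, most of it Cd68 with 485 and 276 UMIs. Of 9 astrocyte markers, S100b and the glutamate transporter Slc1a3 were well detected, at 161 and 370 CPM in adherent and 255 and 80.6 CPM in neurosphere cells. Gfap, the intermediate filament protein that defines astrocytes, was at 30 and 27 UMIs, while Aqp4 and Sox9 were listed at 0 in both. As Sox9 is expressed in many tissues, its 0 is not read as absence.

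The main difference between the cultures lay in Cd274 and Cd200, both about 3-fold lower in neurosphere cells, while Cd47 was higher in neurosphere cells and Pvr was lower. Cd274 had 176 UMIs in adherent and 77 in neurosphere cells, or 3.80 and 1.19 CPM. Its log2 fold change (neurosphere over adherent) was -1.68, with an interval of -2.09 to -1.29. Only 6.20% of all genes with at least 50 UMIs had a lower log2 fold change.

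Cd200 had 177 UMIs in adherent and 83 in neurosphere cells, or 3.82 and 1.28 CPM. Its log2 fold change was -1.58 (interval -1.98 to -1.20), so the intervals of Cd200 and Cd274 overlap nearly in full. Few cells held both genes. They shared 4 adherent cells (3.05 times the product of their shares) and 1 neurosphere cell once each cell had been thinned to 5000 UMIs, numbers too small to read further.

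Pvr was the third gene with a lower level in neurosphere cells, at 37.6 CPM in adherent (1738 UMIs) and 20.0 CPM in neurosphere cells (1296 UMIs). Its log2 fold change of -0.91 (interval -1.02 to -0.81) reaches just past 2-fold at one end of the interval. With TMM scaling, which aligns the bulk of genes between the libraries, it was -1.13 and past 2-fold.

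Cd47 was at 137.6 CPM in adherent (6368 UMIs) and 225.5 CPM in neurosphere cells (14647 UMIs), with a log2 fold change of 0.71 (interval 0.67 to 0.76). Nectin2 followed at 18.9 and 27.8 CPM (0.56, interval 0.44 to 0.67), and Cd276 at 28.3 and 37.9 CPM (0.42, interval 0.32 to 0.52). All 3 lay above the median log2 fold change of all genes, which was 0.32, and none reached 2-fold. Nectin2 and Pvr, which share TIGIT and DNAM-1 as receptors, therefore differed between the cultures in opposite directions.

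Cd24a and Fas were barely detected. Cd24a had 18 UMIs in adherent cells against 40 in the other library (log2 fold change 0.66, interval -0.17 to 1.55). Fas had 19 and 23 UMIs (-0.21, interval -1.15 to 0.74). Both intervals hold 0, so no difference was detectable at this depth, although differences of over 2-fold were not excluded by them. A share of 1.26% of the 50-base stretches at the 3′ ends of Cd24a transcripts also occurs in transcripts of another gene, Gm6212. The 3′ ends of the other 7 genes held no such copies.

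Of the 8 genes, 0 were higher by over 2-fold and 2 were lower by over 2-fold in the neurosphere library, with 7 of the 8 having at least 50 UMIs (all but Fas). Of the 14654 genes with that many UMIs, 21.7% were over 2-fold higher and 11.7% over 2-fold lower, together 33.4%. The median log2 fold change of the 8 genes was 0.10, and 4 of them lay above the median of all genes. The log2 fold change compares each gene with itself, and no order of level between genes is drawn from CPM, since the 3′ counts were not divided by length and the setting for intron reads was not given in the sources used here.

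**Figure D1:**
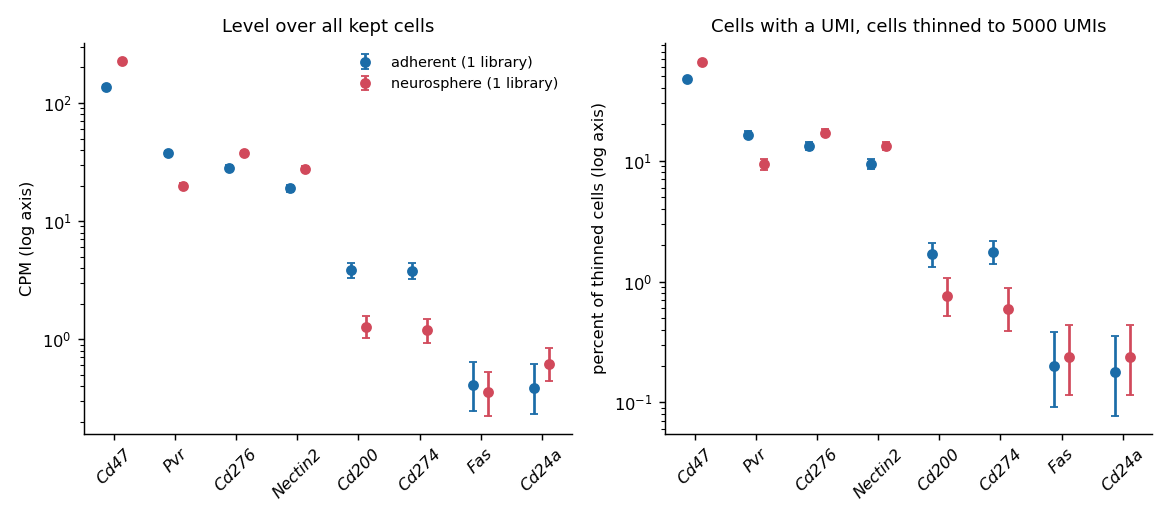
Level of each gene in CPM over all kept cells (left) and share of cells with a UMI after thinning to 5000 UMIs (right), both on log axes, in the 1 adherent (blue) and 1 neurosphere (red) library; bars are exact 95% intervals for counting error. Cd47 lies at 137.6 and 225.5 CPM, while Cd274, Cd200 and Pvr are lower in neurosphere cells in both panels.

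**Figure D2:**
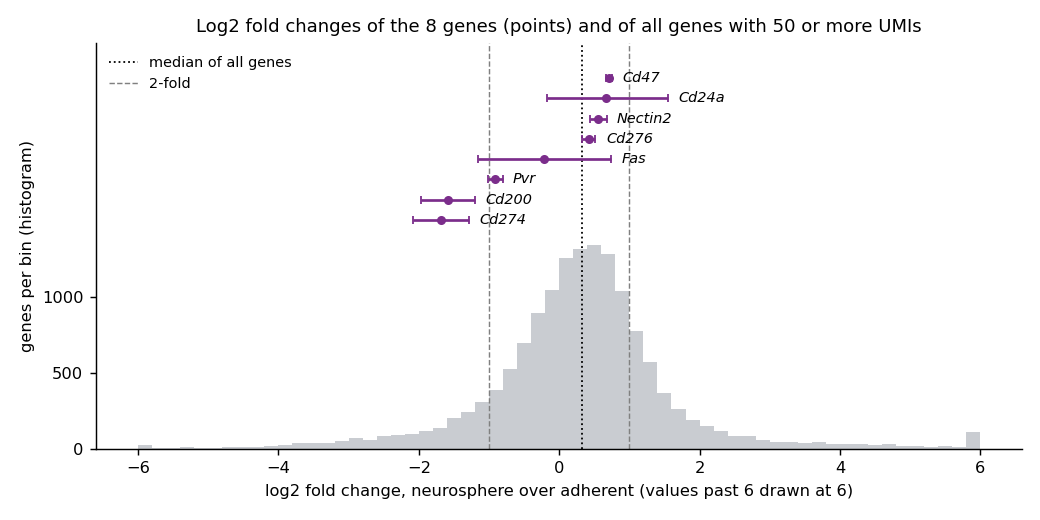
Log2 fold changes (neurosphere over adherent) of the 8 genes as points with exact 95% intervals, set above a histogram of all 14654 genes with at least 50 UMIs. Cd274 and Cd200 lie past the dashed 2-fold line on the lower side, and the dotted line is the median of all genes, 0.32.

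On the chromosomes, Cd274 (ENSMUSG00000016496) lies at chr19:29367455-29388095 on the plus strand and Cd47 (ENSMUSG00000055447) at chr16:49800533-49915010 on the plus strand, in the GENCODE annotation of GRCm38. The latter span begins before the RefSeq start used for the window shown. Pvr (ENSMUSG00000040511) at chr7:19903578-19921160 and Nectin2 (ENSMUSG00000062300) at chr7:19716644-19750483 are neighbors on the minus strand, and Cd200 (ENSMUSG00000022661) lies at chr16:45382135-45409053 on the minus strand. Cd276 (ENSMUSG00000035914) lies at chr9:58524298-58555437 on the minus strand, Cd24a (ENSMUSG00000047139) at chr10:43578284-43584265 on the plus strand and Fas (ENSMUSG00000024778) at chr19:34290666-34327772 on the plus strand. Genes on the opposite strand overlap Cd274, Cd276, Pvr and Nectin2, and whether reads were counted by strand was not given in the sources used here. Fas is overlapped by Gm27818 on the same strand, which counting by strand would not separate.

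At the level of single cells, Cd47 was found in most cells of both cultures. Its UMIs were detected in 63.4% of adherent cells, and in neurosphere cells the share was 89.6%. As the neurosphere library was deeper, shares were also taken after thinning each cell to 5000 UMIs, which left 4464 adherent and 4196 neurosphere cells (587 and 80 were too shallow). Cd47 was then in 47.1% and 66.2% of cells. No cell type in these libraries is known to lack the genes, so a background from free RNA could not be set beside the shares.

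Pvr shows what depth does to such shares. It was in 26.7% of adherent cells and 23.9% of neurosphere cells before thinning, but in 16.4% and 9.32% after it, which matches the difference in CPM more closely. Cd276 was in 13.2% and 17.1% of thinned cells and Nectin2 in 9.45% and 13.3%. Cd274 was in 1.75% of thinned adherent cells (interval 1.38 to 2.18) and 0.596% of neurosphere cells (interval 0.386 to 0.878). Cd200 was in 1.68% and 0.763%.

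Most genes appeared as single UMIs. Thinned adherent cells held at most 2 UMIs of Cd274 and neurosphere cells at most 3, and 1 neurosphere cell held 6 UMIs before thinning. The ratio of variance to mean over thinned cells, which is 1 for random counting, was 1.03 for Cd274 in adherent and 1.28 in neurosphere cells. For Cd47 it was 1.27 and 1.33, and 1.91% of neurosphere cells against 0.493% of adherent cells held 5 or more UMIs.

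Counting how many of the 8 genes had a UMI in a thinned cell, 33.2% of adherent and 22.1% of neurosphere cells had none. One gene was detected in 46.7% and 51.6%, 2 genes in 17.4% and 22.9%, and 3 genes in 2.58% and 3.31%. As many as 4 genes were found in 8 adherent and 4 neurosphere cells, and 5 or more in none of 4464 and 4196 cells. The mean was 0.899 genes in adherent and 1.08 genes in neurosphere cells.

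**Figure D3:**
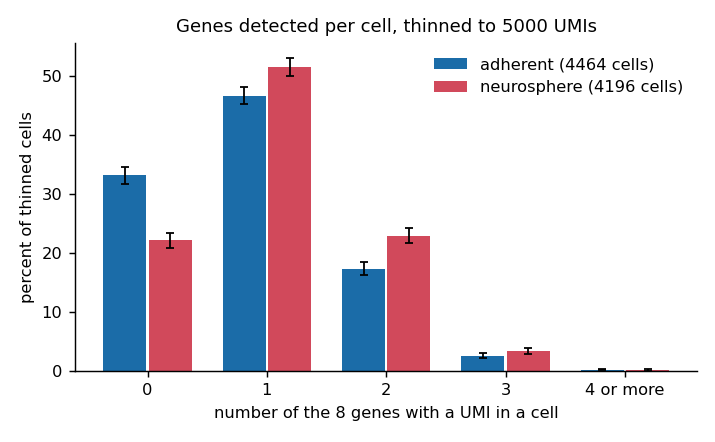
Percent of cells, thinned to 5000 UMIs, in which 0 to 4 or more of the 8 genes had a UMI, with exact 95% binomial intervals, for 4464 adherent (blue) and 4196 neurosphere (red) cells. Cells with none make up 33.2% of adherent and 22.1% of neurosphere cells.

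Pairs among Cd47, Cd276, Pvr and Nectin2, the genes found in most cells, were found together about as often as the product of their shares gives. Pairs with a sparser gene ran wider on both sides and rest on few cells. Cd274 and Pvr met in 17 adherent cells (1.33 times), Pvr and Fas in 3 neurosphere cells (3.22 times), and Cd276 and Cd24a in 0 cells of either culture. Cd47 and Nectin2 met in 205 adherent cells, 1.03 times the product, and in 379 neurosphere cells, also 1.03 times. Cd47 and Cd276 met in 272 and 475 cells, 0.983 and 1.00 times the product. Cd47 and Pvr met in 309 adherent cells, 0.898 times the product, and in 252 neurosphere cells, 0.974 times. Over all 28 pairs, Pearson's r across cells ran from -0.033 to 0.050, and these values share cells, library and sparse counts.

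To ask whether the genes go with the state of a cell inside a culture, thinned cells were sorted by their summed UMIs of a gene list, and the cells above the 90th percentile (list-high) were set against those at or below the median (list-low). There were 10 lists (interferon-stimulated genes, NF-κB targets, p53 targets, S phase, G2/M, immediate early, hypoxia, neural progenitor, simple epithelial and neuron genes), none holding a gene of the 8. Such groups are ranges of a score and not cell types. Of 160 comparisons of a gene, list and culture, 95 had at least 50 UMIs, and 11 of them were past 1.5-fold, 10 higher and 1 lower in list-high cells. These were 8 of 55 in adherent cells, where 14.5% of the comparisons over all genes were, and 3 of 40 in neurosphere cells, where 20.1% were, so the genes did not stand out as a set. Cd276 and Nectin2 were past 1.5-fold for 0 of 10 lists in either culture, and Nectin2 for 1 both with all UMIs and with another thinning seed.

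Interferon-stimulated genes gave the clearest pattern. In adherent cells, Cd274 was at 9.42 CPM in the 446 list-high cells and 2.52 CPM in the 2386 list-low cells (21 and 30 UMIs), a log2 ratio of 1.91 with an interval of 1.03 to 2.76, and 0.99 with the 75th and 25th percentiles as limits. Cd47 was at 197.3 and 125.1 CPM (0.66, interval 0.50 to 0.81). These were 2 of the 5 genes with enough UMIs, where 2.98% of 10627 genes were higher by over 1.5-fold. Pvr went the other way at 29.6 and 42.6 CPM (-0.52, interval -0.92 to -0.15), which is short of 1.5-fold, but past it with the 75th and 25th percentiles (-0.65). Median UMIs per cell before thinning were 8974.5 in list-high and 8427.5 in list-low cells, and 92 cells lay within 1 UMI of the upper limit of 32.

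In neurosphere cells, Cd47 was at 361 CPM in the 405 list-high and 211.8 CPM in the 2325 list-low cells (log2 ratio 0.77, interval 0.65 to 0.89), where 10.4% of 10930 genes were over 1.5-fold higher. Cd274 had 9 and 8 UMIs there, too few for the 50-UMI minimum, at 4.44 and 0.688 CPM (2.69, interval 1.15 to 4.27). With all UMIs of the same cells in place of thinned counts, chosen after the data were seen, Cd274 had 30 and 22 UMIs. These were 5.61 and 0.583 CPM (3.27, interval 2.42 to 4.13), where 13.1% of 12674 genes were over 1.5-fold higher. The 30 UMIs lay in 21 cells, and 1 of these cells held 6, which the interval for counting error does not cover. The median UMIs per cell were 11159 in list-high and 14079 in list-low cells, so the list-high cells were the shallower ones. The part of depth in these ratios was not tested.

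Read from the other side, the 66 neurosphere cells with any UMI of Cd274 had 3705 CPM of interferon-stimulated genes, against 716.3 CPM in the 4210 cells without, a ratio of 5.17. These sums rest on a few cells with very many UMIs of the list, as the median after thinning was 4.5 UMIs in cells with Cd274 and 2 in those without. Cells with Cd274 were the deeper ones, with a median of 15589 UMIs against 13150.5. Of these 66 cells, 21 (31.8%, interval 20.9 to 44.4) were among the list-high cells, which made up 9.65% of all. In adherent cells the list was at 5149 CPM in the 164 cells with Cd274 and 3606 CPM in the 4887 without, a ratio of 1.43. Among 149 thinned adherent cells with Cd274, 35 (23.5%, interval 16.9 to 31.1) were list-high, against 9.99% of all.

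Interferon-stimulated genes themselves were far lower in neurosphere cells. Of the 14 genes on the list, 12 were lower by over 2-fold, beside 11.7% of all genes, and the summed level went from 3661 to 772.2 CPM. Isg15, a ubiquitin-like modifier, was at 1928 and 354.4 CPM and made up 52.3% and 44.8% of the list's UMIs in thinned cells. Cxcl10, a chemokine that draws T cells, was at 295.4 and 24.6 CPM, and Rsad2, an antiviral enzyme, at 250.9 and 52.9 CPM.

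As the cultures differed in this state, the genes were also compared between cells with the same number of UMIs of the list after thinning, a comparison added after the data were seen. The strata were 0 to 2, 3 to 9, 10 to 19, 20 to 39 and 40 or more UMIs, and levels within them were taken from all UMIs. Adherent cells lay mostly in the middle, with 61, 1033, 1979, 1097 and 294 cells, and neurosphere cells at the low end, with 2325, 1466, 290, 83 and 32 cells.

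Cd274 in neurosphere cells climbed over the strata, from 0.583 CPM (22 UMIs) and 1.17 CPM (25 UMIs) to 2.34 CPM (9 UMIs), 6.38 CPM (7 UMIs) and 34.0 CPM (14 UMIs, interval 18.6 to 57.0). In adherent cells it was 1.86 CPM (1 UMI), 3.38 CPM (32 UMIs), 2.68 CPM (53 UMIs), 3.69 CPM (42 UMIs) and 11.0 CPM (32 UMIs, interval 7.50 to 15.5). Cd274 was lower in neurosphere cells at 3 to 9 UMIs of the list (log2 fold change -1.54, interval -2.35 to -0.74), did not differ beyond counting error at 10 to 19 (-0.20, interval -1.40 to 0.84), and was higher at 40 or more (1.63, interval 0.61 to 2.58). The last value rests on 6 neurosphere cells with Cd274 among 32. Without the 1 cell that held 6 UMIs the level was 19.7 CPM (8 UMIs) and the log2 fold change 0.85, with an interval of -0.48 to 2.00 that holds 0, so a higher level of Cd274 in neurosphere cells of this stratum was carried by 1 cell. The median of all genes was 0.32 at 3 to 9 and 0.22 at 40 or more UMIs.

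Cd200, about 3-fold lower over all cells (-1.58), held UMIs in both cultures in 3 strata. Its log2 fold change was -0.93 at 3 to 9 UMIs of the list (32 and 38 UMIs of Cd200, interval -1.65 to -0.21), -0.52 at 10 to 19 (74 and 10 UMIs, interval -1.64 to 0.43) and -0.29 at 40 or more (26 and 3 UMIs, interval -2.66 to 1.42). Without the neurosphere cell with the most Cd200, the values were -1.01, -0.83 and -1.81, so 1 cell decides in 2 of these strata whether Cd200 is past 2-fold. It had 0 and 31 UMIs at 0 to 2, and 35 and 0 UMIs at 20 to 39.

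Cd47 climbed in both cultures and stayed higher in neurosphere cells in all 5 strata. It went from 70.8 CPM (38 UMIs) over 114.2, 127 and 151.9 to 208.3 CPM in adherent cells, and from 194.1 over 250.8, 297.2 and 407.3 to 514.4 CPM in neurosphere cells. The log2 fold change between the cultures lay between 1.14 and 1.46 in the strata, which is more than the 0.71 over all cells. Pvr was lower in neurosphere cells in all 5, by log2 values from -1.37 at 0 to 2 UMIs to -0.62 at 20 to 39, and its interval held 0 in the upper 2 strata. Cd276 and Nectin2 showed no such climb, with Cd276 between 26.1 and 30.2 CPM in adherent and 34.0 and 39.8 CPM in neurosphere cells.

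**Figure D4:**
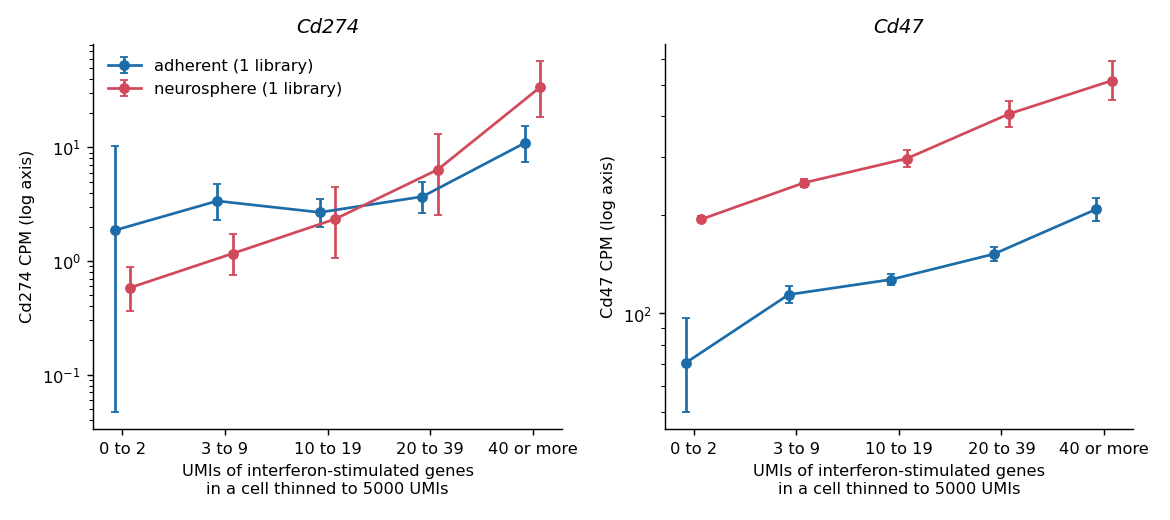
Level of Cd274 (left) and Cd47 (right) in CPM on log axes, in cells grouped by their UMIs of 14 interferon-stimulated genes after thinning to 5000 UMIs, with exact 95% Poisson intervals, in adherent (blue) and neurosphere (red) cells. Cd274 in neurosphere cells rises to 34.0 CPM in the last stratum, against 11.0 CPM in adherent cells, a point that falls to 19.7 CPM without 1 cell, while Cd47 is higher in neurosphere cells throughout.

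The same cells were also grouped by Cd47, which restates the relation and adds no independent evidence. In thinned adherent cells with 0, 1, 2, 3 and 4 or more UMIs of Cd47, the interferon-stimulated list was at 3330, 3745, 4178, 4216 and 5360 CPM. In neurosphere cells it was at 628.3, 734.5, 993, 1051 and 2045 CPM. NF-κB targets were at 114.9, 113.2, 140.6, 144.2 and 289.2 CPM in adherent cells, where the last group held 65 cells and 94 UMIs of the list, and at 168.7, 173.1, 201, 199 and 224.8 CPM in neurosphere cells. Neural progenitor genes were also higher with more Cd47, at 421.8 CPM without it and 575.4 CPM with 4 or more UMIs in adherent cells, and at 2101 and 2439 CPM in neurosphere cells. G2/M genes were at 2407, 2136, 1918, 1747 and 1750 CPM over the groups of neurosphere cells, so lower with more Cd47, and between 2640 and 3084 CPM in adherent cells with no such order.

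For NF-κB targets, Cd274 was past 1.5-fold in adherent cells, while neurosphere cells held too few UMIs of it. In adherent cells, Cd274 was at 12.4 CPM in the 177 cells high in this list and 2.93 CPM in the 2667 low cells (11 and 39 UMIs, log2 ratio 2.09, interval 0.97 to 3.08), where 9.93% of 10597 genes were over 1.5-fold higher. The log2 ratio was 1.24 both with the 75th and 25th percentiles as limits and with all UMIs of the same cells. In neurosphere cells, Cd274 had 2 and 10 UMIs, or 1.14 and 0.88 CPM (0.37, interval -2.86 to 2.60), and Fas had 0 and 5 UMIs. Cd200 in adherent cells was at 7.91 and 3.68 CPM (1.11), with an interval of -0.28 to 2.26 that holds 0. The 18 adherent cells with a UMI of Fas had 3.48 times the level of NF-κB targets of cells without (423.7 and 121.8 CPM), and the 21 neurosphere cells with Fas had 3.38 times (612.8 and 181.5 CPM). The groups of cells with Fas were small, and their median UMIs were 5670 in adherent cells, below the 8260 of those without, and 19038 in neurosphere cells, above 13167. After thinning, list-high and list-low cells held 2 and 6 UMIs of Fas in the adherent and 0 and 5 in the neurosphere library. The ratio of 3.38 was thus not seen at equal depth. Ccl2 alone gave 1578 of the list's 11948 neurosphere UMIs and was in 1.64% of those cells. How far the ratios rest on a few cells was not tested.

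NF-κB targets were not the only list that was higher in cells with Fas. In neurosphere cells, interferon-stimulated genes were at 2.46 times the level of cells without, and in adherent cells neuron genes were at 2.29 times and immediate early genes at 1.73 times.

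The other lists moved few of the genes. Cd47 was at 202.4 and 132.2 CPM in adherent cells high and low in neural progenitor genes such as Olig1 and Olig2 (log2 ratio 0.61, interval 0.42 to 0.80). This was short of 1.5-fold under all 3 alternatives, at 0.31 with the 75th and 25th percentiles, 0.50 with all UMIs and 0.49 with another thinning seed. Cd200 was at 7.91 and 3.34 CPM (1.24, interval 0.10 to 2.25). In that comparison 8.16% of 10774 genes were over 1.5-fold higher. Among neurosphere cells, Pvr was lower in those high in this list, at 12.5 and 22.2 CPM (-0.82, interval -1.51 to -0.20), where 8.19% of 10906 genes were over 1.5-fold lower. It was short of 1.5-fold with the 75th and 25th percentiles (-0.25) and with all UMIs (-0.37).

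Pvr was also higher in neurosphere cells high in immediate early genes such as Fos and Jun, at 28.4 and 17.2 CPM (0.72, interval 0.27 to 1.15), where 9.88% of 10857 genes were over 1.5-fold higher. In adherent cells, Cd274 for immediate early genes (0.75, interval -0.35 to 1.73, where 5.83% of genes were over 1.5-fold higher) and Cd200 for S phase genes (0.77, interval -0.37 to 1.77, where 6.91% were) were past 1.5-fold with intervals that hold 0. The former was 0.02 with another thinning seed, but 0.77 with all UMIs and 0.62 with the 75th and 25th percentiles. The latter ran from -0.10 to 0.55 under the 3 alternatives and was short of 1.5-fold in each.

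For p53 targets, G2/M, hypoxia, simple epithelial and neuron genes, 0 of the 46 comparisons of the 8 genes with at least 50 UMIs were past 1.5-fold. Of all genes, 9.4%, 14.5%, 9.63%, 27.4% and 18.1% were past 1.5-fold either way for these lists in adherent cells, and 12.6%, 29.4%, 15.2%, 23.9% and 31.6% in neurosphere cells. Under the alternatives some of the 8 genes were. With the 75th and 25th percentiles it was 2 of 44 comparisons, beside 12.6% of those over all genes. With all UMIs it was 9 of 56, beside 17.2%, and with another thinning seed 4 of 48, beside 19.3%. The interval left out 0 for 1, 2 and 0 of these calls. The calls whose interval left out 0 are not named here. Among the others, Cd274 for neuron genes in adherent cells was lower, at -0.66 with those percentiles and -1.52 with all UMIs, both with intervals that hold 0. Cd274 had 0 UMIs in the 61 adherent cells high in simple epithelial genes and in the 155 high in neuron genes, groups in which 3 UMIs were the limit of detection.

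**Figure D5:**
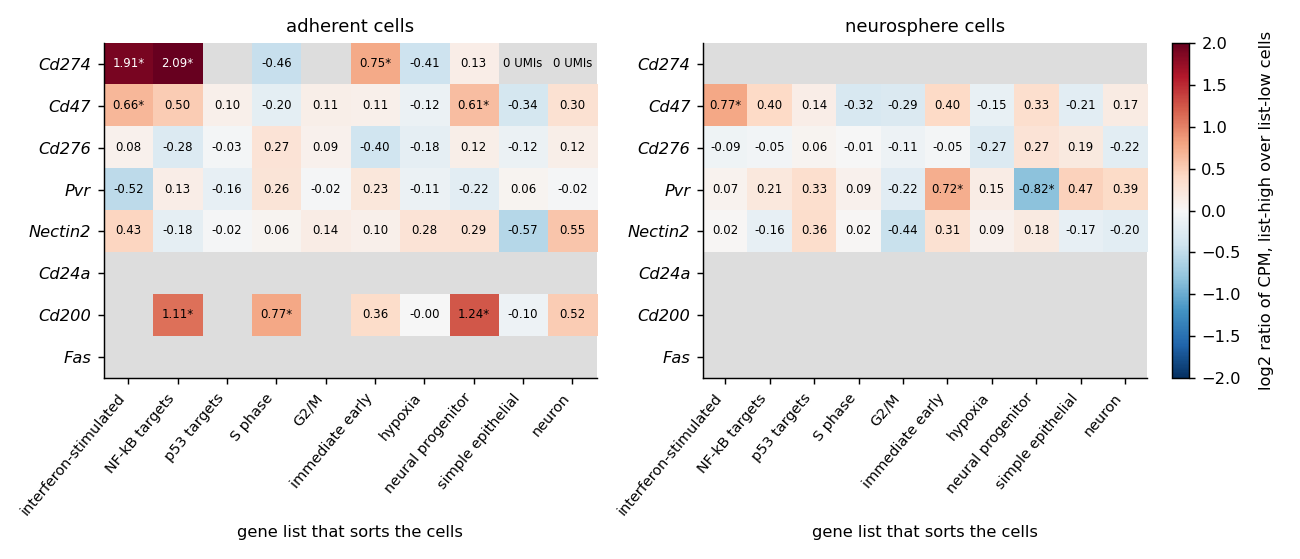
Log2 ratio of CPM in list-high over list-low cells for each of the 8 genes (rows) and 10 gene lists (columns) in adherent (left) and neurosphere (right) cells; gray marks comparisons under 50 UMIs, 0 UMIs marks a group without a UMI, and an asterisk marks a ratio past 1.5-fold. Cd274 reaches 1.91 for interferon-stimulated genes and 2.09 for NF-κB targets in adherent cells, and Cd47 reaches 0.77 for interferon-stimulated genes in neurosphere cells.

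Genes whose UMIs went most closely with a given gene over thinned cells were sought among those found in at least 10% of cells. For Cd47 in adherent cells they were Psmb8, an immunoproteasome subunit (Pearson's r = 0.128), the interferon-induced antiviral protein Ifitm3 (0.106) and the ATP synthase subunit gene Atp5j (0.104), over 4464 cells and 5709 genes. For Cd47 in neurosphere cells they were Sat1 (0.187), S100b (0.165) and Sparc (0.155). For Pvr in adherent cells they were Eps8 (0.127), an adaptor of EGF receptor signaling, Rtn4 (0.112) and Hmga2 (0.087). These weak values are descriptions of sparse counts.

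The partners and relatives of the 8 genes were read from lists, with the same 2-fold limits as above. As 21.7% of all genes were over 2-fold higher and 11.7% over 2-fold lower, 1 or 2 calls in so short a list are close to what all genes show, and nothing particular to a list is read from them. Of 6 other B7 family genes, 1 had enough UMIs. This was Vtcn1 (B7-H4), with 58 UMIs in the adherent and 8 in the neurosphere library, a log2 fold change of -3.35 (-4.63 to -2.27). Cd86 and Pdcd1lg2 (PD-L2), the other ligand of PD-1, were listed at 0 in both, and Cd80 had 13 and 7 UMIs.

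Of 8 other nectins and nectin-like genes, 6 had enough UMIs, 2 were higher and 1 was lower. Cadm2, a nectin-like adhesion molecule, was at 11.4 and 391.8 CPM (log2 fold change 5.10), and Nectin3, a binding partner of Nectin2 and Pvr, at 15.1 and 33.3 CPM (1.14). Nectin4 had 77 and 11 UMIs (-3.30), and Cadm1 was at 65.8 and 42.9 CPM (-0.62).

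Another list held 6 genes that act on the Cd274 or Cd47 protein after translation, of which 2 were higher by over 2-fold. Cmtm6, which keeps PD-L1 at the cell surface, was at 6.27 and 14.9 CPM (log2 fold change 1.25, interval 1.06 to 1.45), opposite in direction to the Cd274 mRNA, while its relative Cmtm4 was at 72.9 and 38.8 CPM (-0.91). Qpct, a glutaminyl cyclase, was at 0.778 and 8.98 CPM (3.53), and Qpctl, the family member that modifies Cd47 for SIRPα binding, was at 3.69 and 5.67 CPM (0.62). Cops5, which stabilizes PD-L1, was at 90.3 and 81.8 CPM (-0.14).

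Among 13 genes of interferon signaling, 1 was over 2-fold higher and 0 were lower, with a median log2 fold change of -0.02. Ifngr1, a receptor chain for interferon gamma, was at 16.8 and 65.3 CPM (1.96, interval 1.85 to 2.07), and Ifnar1, a receptor chain for type I interferons, at 11.8 and 17.3 CPM (0.55). Their partner chains were at 11.0 and 12.4 CPM for Ifngr2 (0.16, interval 0.0018 to 0.33) and at 74.4 and 59.6 CPM for Ifnar2 (-0.32, interval -0.39 to -0.25), so the 4 receptor chains did not share 1 direction. Nlrc5, a regulator of MHC class I genes, was at 9.53 and 5.97 CPM (-0.67).

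Of 12 genes of the Fas pathway, 11 had enough UMIs, 2 were higher and 0 lower (median 0.48). The higher ones included Faim2, an inhibitor of Fas-mediated apoptosis, with 7 and 98 UMIs (log2 fold change 3.32). Tnfrsf10b, a death receptor for TRAIL, was at 2.61 and 1.71 CPM (-0.61), and Faim, another inhibitor, at 56.3 and 51.4 CPM (-0.13). Tnfrsf21 was listed at 0 in both.

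A further 14 genes act on immune cells, and of 11 with enough UMIs 2 were higher and 3 lower, beside the same 21.7% and 11.7% of all genes. Tgfb2, an immunosuppressive cytokine, was at 3.50 and 31.4 CPM (log2 fold change 3.16) and Ulbp1, a ligand of the activating receptor NKG2D, at 2.59 and 7.22 CPM (1.48). Lgals3, a galectin, was at 4782 and 391.2 CPM (-3.61), H2-T23 (Qa-1), a ligand of NKG2A, at 54.5 and 6.16 CPM (-3.15), and Lgals9, a ligand of TIM-3, at 159.4 and 48.5 CPM (-1.72).

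Known receptors of 6 of the ligands (all but Cd276), with Fas ligand, were at or near 0, with 28 UMIs in adherent and 23 in neurosphere cells over 9 genes. Sirpa and Pvrig were listed at 0 in both. Sirpa, Nectin1, Sox9 and Tnfrsf21, all at 0 in both libraries, are expressed in many tissues, so their 0 is given as listed and not read as absence of the mRNA. Pdcd1 (PD-1) had 0 and 1 UMI, Tigit 3 and 0, Cd96 1 and 0, Cd226 (DNAM-1) 1 and 1, and Cd200r1 1 and 5. Siglecg had 17 and 1 UMIs and Fasl 5 and 15.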

How the data were processed

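A 3′ scRNA-Seq library (10x Genomics) was made per culture. The authors deposited raw UMI counts for every gene in every cell called by Cell Ranger 7.0.1, mapped to mm10 per the submitters' processing notes, without normalization or quality control. The annotation and the setting for intron reads were not given in the sources used here. Library totals were 68531063 and 82832873 UMIs.

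The 13 mitochondrial and 101 ribosomal genes were removed, which left 32171, and cells had to hold at least 1000 UMIs and 1250 (adherent) or 2250 (neurosphere) genes. The kept cells held 46290996 and 64943938 UMIs. Doublets were not called. UMIs were summed per library and given as CPM, with exact Poisson, conditional binomial (ratios) and Clopper-Pearson (shares) 95% intervals, which cover counting error only. Fold changes were called for genes with at least 50 UMIs over both sides, past 2-fold between cultures and 1.5-fold between cell states, and a group at 0 was given a floor of 3 counts. Cells were thinned to 5000 UMIs for shares and cell states. Named were all 8 genes, per list of partners up to 2 genes with the highest and 2 with the lowest log2 fold change (all receptors), the 3 genes most like each gene, and up to 3 genes with the most UMIs per state or marker list. Lgals9, Qpctl, Ifngr2, Ifnar2, Nectin1, Cd80, Cd86, Pdcd1lg2, Tnfrsf21, Aqp4, Sox9, Gfap and Ptprc, named beside them, were chosen after their values were seen. The genes and lists were chosen with earlier results of these data known. Intervals of log2 fold changes were tested on simulated Poisson counts, the error they are built for. That test cannot speak to spread between cells or libraries. Gene positions came from GENCODE (32121 of 32171 identifiers matched), promoters from RefSeq. Some items of the lists are not reported here.

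Alternatives covered the cell filter, mitochondrial share, cells above the 95th percentile of UMIs, TMM scaling by edgeR 4.0.16, the total with mitochondrial and ribosomal genes, the gene length trend, the mean of each cell's CPM, thinning and its seed, the percentiles and the UMI minimum. Scripts ran in Python 3.11.15 (scipy 1.17.1, numpy 2.4.6, matplotlib 3.10.9 for figures, statsmodels 0.14.6 for trends, pandas 2.3.3 for tables).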

Additional observations from a re-analysis of the deposited data

How the results depend on the processing

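The lower levels of Cd274 and Cd200 in neurosphere cells kept their direction and stayed past 2-fold under all 9 alternatives for scaling, filter and length. The count of genes over 2-fold lower was 3 in place of 2 with TMM scaling, through Pvr at -1.13. Fas, under the 50-UMI minimum and so not counted, ran from -1.14 with the mean of each cell's CPM to 0.64 and has no stable direction. The count of genes over 2-fold higher was 1 in place of 0 when the gene minimum of neurosphere cells was set for both cultures, through Cd24a at 1.06. Scaling set the median log2 fold change of all genes, which was 0.11 with TMM and 0.54 with mitochondrial and ribosomal genes kept, against 0.32. TMM gave 16.1% of all genes higher and 14.5% lower, and keeping those genes 29.5% and 9.38%. Cd47 was at 0.50 with TMM and 0.93 with those genes kept, and at 0.47 with the length trend removed.

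With TMM, 1 of the other nectins was over 2-fold higher, 1 regulator of the Cd274 and Cd47 proteins lower and 1 interferon signaling gene lower. With a minimum of 10 UMIs, 2 of the other B7 genes were lower, and of the immune receptors 1 was higher and 1 lower. The share of all genes at that minimum is not given, so these counts are not read further. With all UMIs of the same cells, 13 comparisons with cell states in adherent and 10 in neurosphere cells were past 1.5-fold. Of all genes' comparisons, 12% and 19% were. With another thinning seed it was 5 in neurosphere cells, given without a share over all genes for that seed. The numbers tested in these settings are not given, so no count is read as more or fewer than all genes show. Another seed found 4 of the adherent and 1 of the neurosphere genes most like a gene again, so these names rest on the draw. With the 75th and 25th percentiles, Cd200 turned to -0.10 for S phase genes in adherent cells and Cd274 was at 0.99 for interferon-stimulated genes. The cause of these shifts was not tested. With 1 library per culture no library could be left out. No paired analysis was possible because each culture is a single library. Depth limits Cd24a and Fas, and Cd274 in neurosphere cells.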
